A study of Mus musculus with 28 samples.

Results

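The genes described here are 38 members of the cellular stress machinery that handles misfolded protein: chaperones and folding factors of the endoplasmic reticulum (ER), the ER degradation pathway, the ER stress sensors with Xbp1, ATF4 with its targets, and the cytosolic heat shock proteins. They were chosen by name, with earlier results of these data known, and all 38 were found among the 14845 genes of the deposited table. All 38 also passed the filter on low values (1 or more in 5 or more of the 28 libraries), as did 13495 genes in all. Bulk RNA-seq was carried out on kidneys of male mice, to describe how diabetic kidney disease looks in db/db mice that have lost a kidney. The db/db mouse carries the diabetes mutation of the leptin receptor and becomes obese and diabetic, and the db/m mouse is its lean control. Intact db/m kidneys came from 26 weeks of age (n = 5) and 35 weeks (n = 6). The db/db mice had undergone uninephrectomy (Unx), the removal of 1 kidney, and were 26 weeks (n = 12) or 35 weeks old (n = 5). No db/m animal was operated and no db/db animal was left intact, so genotype and surgery cannot be told apart in the difference between them, called the disease comparison below. The labels do not say that libraries are separate animals, which is assumed here, and the p-values cover the spread between these libraries, which may be technical. No batch is given in the labels, so age and a batch that went with it cannot be told apart.

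Secreted and membrane proteins fold in the ER with the help of the Hsp70 chaperone BiP (Hspa5), the Hsp90 chaperone GRP94 (Hsp90b1), the lectin chaperones calnexin and calreticulin, and protein disulfide isomerases. When unfolded protein accumulates, the sensors IRE1 (Ern1), ATF6 and PERK (Eif2ak3) raise chaperone and degradation genes through spliced XBP1 and cleaved ATF6, and PERK lowers translation and favours ATF4, whose targets include Ddit3 (CHOP) and Trib3. The integrated stress response reaches ATF4 through other kinases too, and the cytosolic heat shock response works through HSF1. The kidney's proximal tubule has a heavy load of membrane protein, and ER stress markers are widely followed in diabetic kidney disease.

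The deposited values are expression values scaled between libraries, and each difference below was tested on log2(value + 1) with limma over all 13495 genes, with a call at an adjusted p below 0.05. The libraries held 21.8 M to 30.8 M estimated reads. Kidney markers were present in every library: the summed level of 10 proximal tubule markers lay between 9592 and 14063, and none of them was at 0 throughout. Several other cell markers moved with disease. The summed level of 9 markers of injured tubule had a median of 1208 for db/m against 4692 for db/db Unx at 26 weeks, and 1304 against 7578 at 35 weeks. Spp1 made up most of these sums (758 ± 68.7 and 3632 ± 705, SD, at 26 weeks), and 8 of the 9 were higher at 26 weeks and 9 at 35 weeks. The summed level of 4 B and plasma cell markers (without Xbp1) had a median of 31.3 for db/m against 3.45 for db/db Unx at 26 weeks, and 19.4 against 6.91 at 35 weeks. Jchain made up most of this sum (30.5 ± 19.0 and 3.00 ± 2.27, SD, at 26 weeks). Cd79a, Cd79b and Mzb1 were low, with means of 1.22, 1.52 and 0.848 in 26-week db/m. Of the proximal tubule markers, 6 were lower at 26 weeks and 5 at 35 weeks, and of 5 endothelial markers 3 and 2. Of 6 thick ascending limb markers, 3 were higher and 2 lower at 26 weeks, and 1 higher and 3 lower at 35 weeks. None of 5 erythroid markers was called at either age. Among all genes, 17.2% were called higher and 17.7% lower at 26 weeks, and 15.9% and 16.4% at 35 weeks. The summed level of 8 macrophage markers ranged from 372 to 3739 over the 5 libraries of 35-week db/db Unx kidneys. Cd74 made up most of it, at 1639 ± 1176 (SD, n = 5) in that group, beside 209 ± 118 for Lyz2, the next highest. In the disease comparison of 35 weeks, 5 of the 8 markers were higher and none was lower. Replicates 03, 05 and 06 held the 3 highest sums, and these 3 libraries also stood apart from the other db/db libraries on the second principal component. From the B and plasma cell list, Ighm and Igkc were not analysed here. The part of these cell markers in the results below was not tested, and in whole tissue fewer cells of a type and less RNA per cell cannot be told apart.

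At 26 weeks the stress genes were mostly lower in the diseased kidney: 20 of the 38 members were lower in db/db Unx and 2 were higher. Of all genes tested, 17.7% were called lower and 17.2% higher in that comparison, so the lower share of the members (52.6%) stood above that of all genes and the higher share (5.26%) was below it. At 35 weeks 15 members were lower (39.5%) and 8 were higher (21.1%), against 16.4% and 15.9% of all genes. The median log2 difference of the members was -0.35 at 26 weeks and -0.20 at 35 weeks, beside 0.02 and 0.01 over all genes. A total of 15 members were lower at both ages, 2 (Hspa1a and Hspa1b) were higher at both, none changed sides, and 10 were called at neither age; of all genes, 12.4% were lower at both ages and 9.99% higher at both. The count at 35 weeks fell without the libraries named above, db/db Unx replicates 03, 05 and 06, which leaves 2 libraries in that group. There 8 members were lower and 2 (Herpud1 and Ppp1r15a) higher, while the genes called of all tested fell from 4357 to 2407. The part of these libraries and that of a smaller group cannot be told apart there. Scaling each library to its total raised the count of higher members at 26 weeks from 2 to 6, and moved the share of all calls that were higher from 49.2% to 68.5% at 26 weeks and from 49.3% to 62.3% at 35 weeks.

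**Figure D1:**
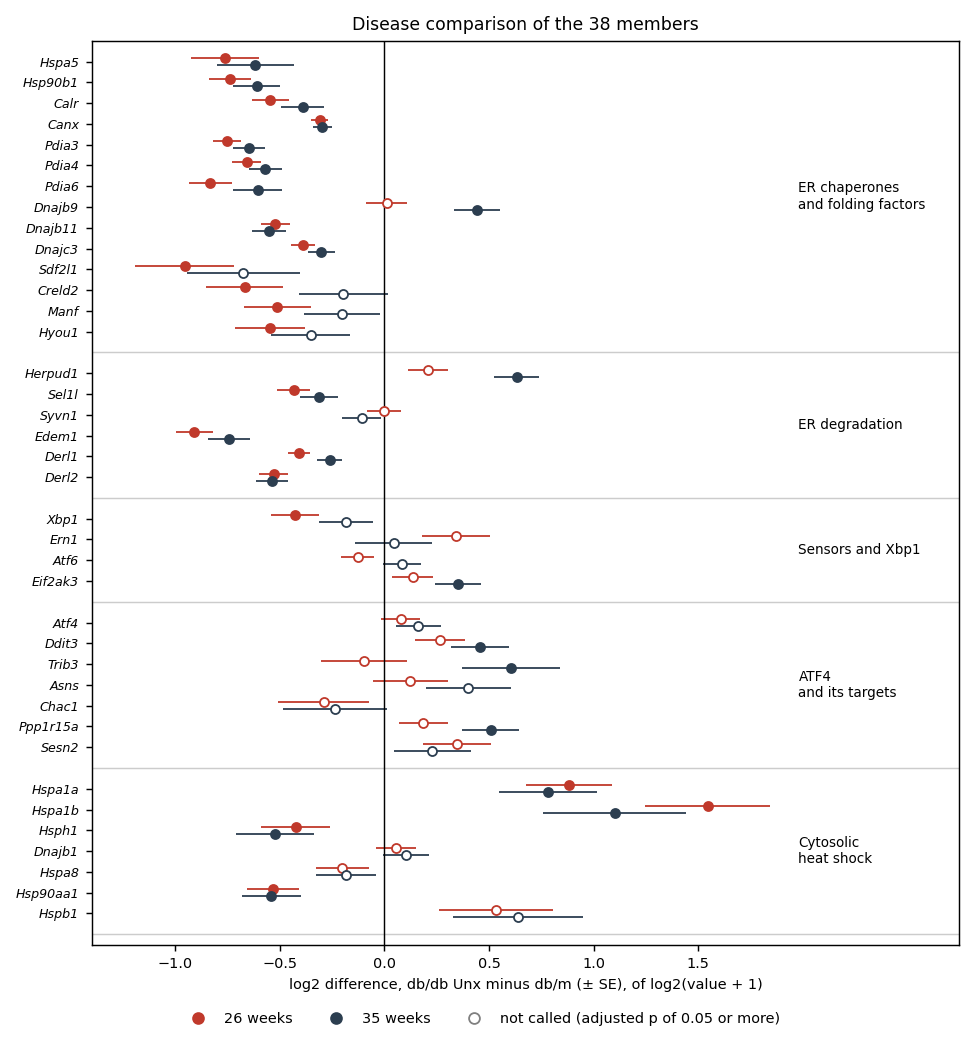
The log2 difference between db/db Unx and db/m on the log2(value + 1) scale (x axis) is plotted for each of the 38 members (y axis), grouped by role, with bars of 1 SE; red is 26 weeks and dark blue 35 weeks, and open points were not called. The ER chaperones lie left of 0 at both ages apart from Dnajb9, while Herpud1, the genes of the ATF4 arm other than Chac1, and Hspa1a with Hspa1b lie right of 0 at 35 weeks.

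The ER stress element consists of the letters CCAAT and, after 9 unspecified bases, CCACG, and is known from ER chaperone promoters as a site of NF-Y and ATF6. It was searched on both strands in the 250 bases before each RefSeq transcription start (build GRCm38.p6), where 32 of the 38 members had a window. It was present in 8 members (Hspa5, Hsp90b1, Calr, Canx, Pdia6, Dnajc3, Creld2 and Syvn1) and in 0.113% of all 32851 windows. A match is a run of letters, and binding was not measured. The related element ERSE-II, the letters ATTGG and CCACG with 1 unspecified base between them, was found in Herpud1 among the members and in 0.0304% of windows. The letters TGATGCAA of the composite element read by ATF4 were found in Herpud1 and Chac1 and in 0.791% of windows. The windows below are written 5′ to 3′ on the strand of the gene, with the matches in capitals. They are Hspa5 (chr2:34771840-34772089, plus strand), Hsp90b1 with 2 matches (chr10:86705445-86705694, minus strand), Pdia6 (chr12:17266339-17266588, plus strand), Creld2 (chr15:88819396-88819645, plus strand), and 2 genes that were lower at neither age: Syvn1 (chr19:6046326-6046575, plus strand) and Herpud1 (chr8:94386179-94386428, plus strand).
Hspa5: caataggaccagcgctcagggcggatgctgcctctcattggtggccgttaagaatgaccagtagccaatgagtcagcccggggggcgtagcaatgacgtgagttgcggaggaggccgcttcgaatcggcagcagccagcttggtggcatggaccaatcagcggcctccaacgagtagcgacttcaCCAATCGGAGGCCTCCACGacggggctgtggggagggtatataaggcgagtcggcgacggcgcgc
Hsp90b1: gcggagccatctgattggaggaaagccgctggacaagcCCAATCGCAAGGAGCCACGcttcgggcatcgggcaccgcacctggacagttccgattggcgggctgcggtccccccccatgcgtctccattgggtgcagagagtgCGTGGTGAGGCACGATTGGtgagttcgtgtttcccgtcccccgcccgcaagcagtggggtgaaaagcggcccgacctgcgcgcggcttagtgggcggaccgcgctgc
Pdia6: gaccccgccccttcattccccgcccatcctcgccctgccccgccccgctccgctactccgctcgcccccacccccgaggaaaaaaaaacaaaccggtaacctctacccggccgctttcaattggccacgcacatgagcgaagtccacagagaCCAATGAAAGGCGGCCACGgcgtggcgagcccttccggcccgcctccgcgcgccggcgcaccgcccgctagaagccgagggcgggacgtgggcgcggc
Creld2: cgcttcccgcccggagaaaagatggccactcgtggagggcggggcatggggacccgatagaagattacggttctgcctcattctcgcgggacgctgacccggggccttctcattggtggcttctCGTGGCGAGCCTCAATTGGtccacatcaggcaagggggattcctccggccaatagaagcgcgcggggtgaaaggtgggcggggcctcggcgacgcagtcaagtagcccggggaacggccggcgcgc
Syvn1: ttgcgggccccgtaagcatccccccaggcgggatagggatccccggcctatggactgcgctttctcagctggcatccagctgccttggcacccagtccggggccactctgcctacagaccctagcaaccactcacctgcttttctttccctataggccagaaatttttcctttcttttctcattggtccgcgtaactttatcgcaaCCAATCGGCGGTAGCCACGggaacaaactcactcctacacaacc
Herpud1: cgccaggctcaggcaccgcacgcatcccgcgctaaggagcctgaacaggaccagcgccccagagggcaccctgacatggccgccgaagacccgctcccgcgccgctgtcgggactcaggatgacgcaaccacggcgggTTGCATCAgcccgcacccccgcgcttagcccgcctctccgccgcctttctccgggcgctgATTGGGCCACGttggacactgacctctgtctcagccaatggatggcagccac

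Of the 8 members with the ER stress element in this window, 7 were lower at 26 weeks and 6 at 35 weeks, beside 17.7% and 16.4% of all genes. The 9 other ER chaperone and degradation genes with a window held no whole match in it. Of these, 7 were lower at 26 weeks and 6 at 35 weeks, so the counts were much alike with and without a match. Herpud1 is among these 9, and its window ends in the letters of the element short of the last G. Whether Herpud1 has the element could not be read from this window. Syvn1, which has the element, was called at neither age, and Herpud1, with the second form of it and the ATF4 letters, was higher at 35 weeks.

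The ER chaperones and folding factors were lower as a group. Their lower share was 92.9% at 26 weeks and 64.3% at 35 weeks, beside 17.7% and 16.4% of all genes. At 26 weeks 13 of the 14 were lower and none was higher, with a median log2 difference of -0.60, and the groups did not overlap for 8 of them; 7.68% of all genes were lower without overlap. At 35 weeks 9 were lower (median -0.47) and Dnajb9 was higher, and 6 were lower without overlap beside 10.3% of all genes. The summed deposited value of the 14 genes was 3739 ± 599.8 (SD, n = 5) in db/m against 2427 ± 212 (n = 12) in db/db Unx kidneys of 26 weeks, and 3753 ± 319 (n = 6) and 2671 ± 328 (n = 5) at 35 weeks.

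Hspa5 (ENSMUSG00000026864, chr2:34771970-34777547 on GRCm38) encodes BiP, the Hsp70 chaperone that holds the stress sensors inactive. In the 26-week db/m libraries its values were 601, 671, 611, 944 and 529 (replicates 01 to 05), and over the 12 db/db Unx libraries they ran from 289 over a median of 361 to 541. The db/m library 04 stood above all others, and the groups overlapped, with 11 of 12 db/db values below every control. Hspa5 was 41.0% lower in db/db Unx (log2 difference -0.76 ± 0.16 SE, adjusted p = 0.000557). At 35 weeks db/m ran from 535 over 595 to 1028, and the db/db Unx values were 453, 376, 537, 402 and 368 (replicates 01, 02, 03, 05 and 06). The highest db/m value, in library 05, was again far above the rest, and only db/db library 03 reached the range of the controls. The difference was -0.62 ± 0.18 (adjusted p = 0.0112), and it lost its call after quantile normalization (-0.46, adjusted p = 0.0587) and without replicates 03, 05 and 06 (-0.65, adjusted p = 0.0869).

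Hsp90b1, the ER form of Hsp90, had values of 432, 437, 420.5, 647 and 369 in db/m at 26 weeks and ran from 231 over 264 to 321 in db/db Unx. All 12 diseased kidneys lay below all controls, and the log2 difference was -0.74 ± 0.10 (adjusted p = 7.73e-07). The 35-week db/m values ran from 405 over 444 to 535, and the db/db values were 357, 257, 336, 297 and 252, again without overlap (-0.61 ± 0.11, adjusted p = 9.62e-05). On the same genome stretch lies 1810014B01Rik on the opposite strand, and the library kit does not mark strand, so reads of the shared part cannot be told apart.

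The disulfide isomerases, which form and shuffle the disulfide bonds of secreted proteins, were lower without overlap at both ages. Pdia3 had values of 582, 581, 565, 720.4 and 528 in db/m at 26 weeks and ran from 323 over 338 to 394 in db/db Unx, a difference of -0.75 ± 0.07 (adjusted p = 1.96e-11). At 35 weeks Pdia3 ran from 583 over 612 to 634 in db/m, and the db/db values were 493, 339, 418, 387 and 329.6 (-0.65 ± 0.08, adjusted p = 1.43e-08). The highest of these, in library 01, was still below the lowest control. Pdia6 was 267 ± 54.6 (SD, n = 5) and 148 ± 17.4 (n = 12) at 26 weeks, the lowest ratio among the isomerases here at 43.9% lower, and 34.3% lower at 35 weeks. Pdia4 was 36.7% and 32.7% lower.

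The lectin chaperones, which hold glycoproteins until they are folded, had smaller fitted differences. Canx (calnexin) was 19.3% lower at 26 weeks and 18.6% lower at 35 weeks, and its spread was small: 512 ± 32.0 (SD, n = 5) against 412 ± 20.3 (n = 12), then 534 ± 11.3 (n = 6) against 435 ± 16.7 (n = 5), with no overlap at either age. Calr (calreticulin) was 31.5% lower at 26 weeks without overlap. At 35 weeks its db/db values were 553, 359.5, 469, 473 and 369, beside 546 to 617 in db/m. Only library 01 reached the controls, and the call (-0.39 ± 0.10, adjusted p = 0.00338) was lost after quantile normalization (-0.22, adjusted p = 0.109).

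The J-domain cochaperones of BiP split. Dnajb11 was 30.3% lower at 26 weeks and 31.8% lower at 35 weeks, without overlap at either age, and Dnajc3 (P58IPK) was 23.6% and 18.9% lower. Dnajb9 (ERdj4), which also keeps IRE1 in check, went the other way at 35 weeks. Its 26-week values were 28.5, 28.2, 32.4, 18.4 and 28.7 in db/m and ran from 20.9 over 27.6 to 31.1 in db/db Unx, which gave no call (0.01 ± 0.10, adjusted p = 0.946). Among 35-week kidneys db/m ran from 23.3 over 25.4 to 27.5, and the db/db values were 32.1, 34.3, 28.3, 41.1 and 38.4. Every diseased kidney lay above every control at 35 weeks, as in 7.84% of all genes, and Dnajb9 was 1.36-fold higher (0.44 ± 0.11, adjusted p = 0.00175).

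Sdf2l1, Creld2, Manf and Hyou1, ER-resident genes of the stress response, were lower at 26 weeks and not called at 35 weeks. Sdf2l1, a partner of the J-domain cochaperones, had the lowest ratio of the chaperone group, at 48.4% lower: its db/m values were 13.5, 20.4, 19.3, 44.1 and 14.8, and db/db Unx ran from 6.51 over 9.60 to 19.4. Library 04 again held the highest control value, and the groups overlapped. The 35-week difference of Sdf2l1 was -0.68 ± 0.27 (adjusted p = 0.0559). It was called after quantile normalization, with the spread of 35 weeks alone, and in 5 of the fits that left out a single library. Creld2 was 37.1% lower at 26 weeks (-0.67 ± 0.19, adjusted p = 0.00582). At 35 weeks its db/db values were 32.6, 29.5, 64.7, 33.3 and 31.2, so that library 03 stood far above the others, and the difference was -0.20 ± 0.21 (adjusted p = 0.5264). Manf, a secreted survival factor held in the ER by BiP, differed by -0.51 ± 0.16 at 26 weeks (adjusted p = 0.013) and by -0.20 ± 0.18 at 35 weeks. Its gene overlaps Dcaf1 and Rbm15b. Hyou1, the nucleotide exchange factor of BiP, differed by -0.55 ± 0.17 at 26 weeks (adjusted p = 0.0104), a call that was lost without db/m library 04 (-0.38, adjusted p = 0.0726).

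**Figure D2:**
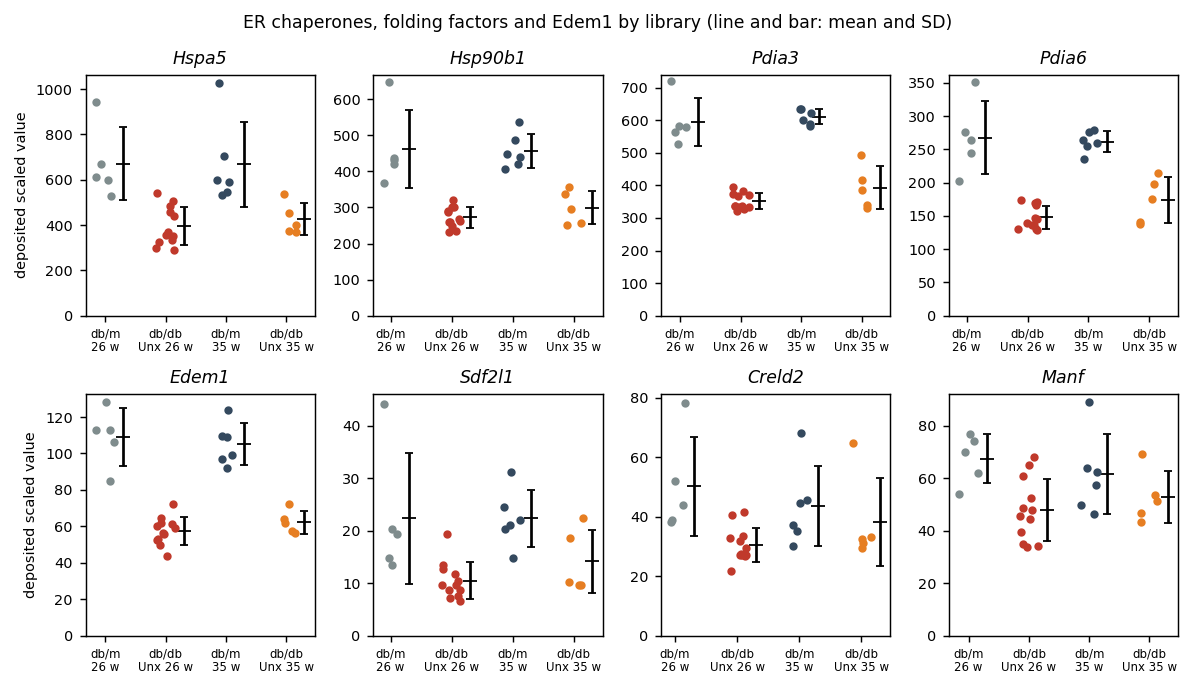
Deposited scaled values (y axis, from 0) of 7 ER chaperones or folding factors and Edem1 are plotted for every library in the 4 groups, with the mean and SD beside the points. At 26 weeks the db/db Unx mean lies below the db/m mean in each gene, and the points do not overlap for Hsp90b1, Pdia3, Pdia6 and Edem1; 1 db/m point stands apart in each age group of Hspa5 and 1 db/db Unx point of 35 weeks in Creld2.

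In 2 control libraries the ER genes stood high together. Replicate 04 of the 26-week db/m group was the highest of its 5 libraries in 13 of the 14 ER chaperones and in 24 of the 38 members, and the lowest in Dnajb9. Its macrophage sum was 1674, beside 474 to 545 in the other 4. Most of that sum is Cd74, at 596 ± 494 (SD, n = 5) in the group, beside 56.4 ± 14.8 for Lyz2, the next highest. Replicate 05 of the 35-week db/m group was the highest of 6 in 10 of the 14 chaperones and in 19 of the 38 members. Without both libraries, an alternative chosen after seeing the data, the chaperone counts stayed at 13 lower at 26 weeks and at 9 lower with 1 higher at 35 weeks, with medians of -0.48 and -0.44. Without db/db Unx replicates 03, 05 and 06, 6 of the 14 were lower at 35 weeks and none was higher.

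The ER degradation pathway pulls misfolded proteins out through the SEL1L-HRD1 channel for the proteasome. Of its 6 members, 4 were lower at both ages (Edem1, Sel1l, Derl1 and Derl2, each without overlap, beside 7.68% of all genes lower without overlap at 26 weeks and 10.3% at 35 weeks), Herpud1 was higher at 35 weeks, and Syvn1 was called at neither age. The lower share was 66.7% at both ages, beside 17.7% and 16.4% of all genes. The median log2 difference was -0.42 at 26 weeks and -0.29 at 35 weeks. Without db/db Unx replicates 03, 05 and 06, 2 of the 6 (Edem1 and Derl2) were lower at 35 weeks and Herpud1 was higher, while Sel1l (-0.34, adjusted p = 0.059) and Derl1 (-0.21, adjusted p = 0.0764) were not called.

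Edem1 (ENSMUSG00000030104, chr6:108828641-108859356 on GRCm38), a lectin that trims mannose and sends glycoproteins to degradation, had 26-week db/m values of 113, 113, 84.7, 128 and 106 and ran from 43.5 over 57.6 to 72.3 in db/db Unx. No diseased value reached the controls, and Edem1 was 46.8% lower (-0.91 ± 0.09, adjusted p = 1.18e-10). At 35 weeks db/m ran from 92.2 over 104 to 124, and the db/db values were 62.0, 57.4, 72.1, 56.2 and 63.8. The gap between the groups stayed, at 40.3% lower (-0.74 ± 0.10, adjusted p = 1.97e-07). Sel1l, the scaffold of the channel, was 26.0% lower at 26 weeks and 19.6% at 35 weeks, and the Derlin genes Derl1 (24.7% and 16.7%) and Derl2 (30.7% and 31.1%) were lower too. Syvn1, the ubiquitin ligase HRD1 that works with Sel1l, was 30.7 ± 1.72 (SD, n = 5) in db/m against 30.8 ± 3.96 (n = 12) in db/db Unx kidneys of 26 weeks. Its difference was -0.00294 ± 0.08 at 26 weeks and -0.11 ± 0.09 at 35 weeks (adjusted p = 0.983 and 0.407).

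Herpud1 (ENSMUSG00000031770, chr8:94386438-94395377), a membrane protein that binds HRD1 and is induced by both the ER stress and the ATF4 arm, was the degradation gene that rose. At 26 weeks the db/m values were 441, 380.1, 356, 342 and 419.9, and db/db Unx ran from 371 over 441 to 550.5. A total of 6 of the 12 diseased kidneys lay above all controls, and the difference was not called (0.21 ± 0.09, adjusted p = 0.0894); it was called after quantile normalization (0.36, adjusted p = 0.00295) and after scaling to the total (0.30, adjusted p = 0.0103). At 35 weeks db/m ran from 278 over 369.5 to 408, and the db/db values were 454, 514, 607, 646 and 596. The groups did not overlap, and Herpud1 was 1.55-fold higher (0.63 ± 0.11, adjusted p = 2.94e-05). Per kilobase of exon it had rank 4 of the 38 members in db/m at 26 weeks (166 ± 17.9, SD) and rank 2 in db/db Unx at 26 weeks (193 ± 25.1) and 35 weeks (242 ± 33.4), behind Hspa8 in both. Its neighbour in that last order, Calr, stood at 154 ± 28.1 per kilobase.

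The sensors and Xbp1 were read at the transcript level only; splicing of Xbp1, cleavage of ATF6 and phosphorylation of PERK and IRE1 were not measured. Of these 4 genes, Xbp1 was lower at 26 weeks and Eif2ak3 was higher at 35 weeks, with medians of 0.00353 and 0.06. Among all genes, 17.7% were lower at 26 weeks and 15.9% higher at 35 weeks. Xbp1, the transcription factor spliced by IRE1, had db/m values of 168, 202, 187, 190.4 and 274 at 26 weeks and ran from 131 over 148 to 194 in db/db Unx. Of the 12 diseased kidneys, 11 lay below all controls, and Xbp1 was 25.6% lower (-0.43 ± 0.11, adjusted p = 0.00434). At 35 weeks the difference was -0.18 ± 0.13 (adjusted p = 0.313), and without db/m library 02 it was -0.30 (adjusted p = 0.0306). Xbp1 is also a plasma cell gene, and the 4 other plasma and B cell markers were all lower at 26 weeks and 2 of them at 35 weeks.

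Eif2ak3, the PERK kinase, had 35-week values from 23.6 over 26.2 to 30.2 in db/m and of 36.4, 32.6, 28.3, 34.1 and 36.7 in db/db Unx. All but library 03 lay above the controls, and the difference was 0.35 ± 0.11 (adjusted p = 0.0132), beside 0.14 ± 0.10 at 26 weeks (adjusted p = 0.302). Ern1 stood at 7.69 ± 2.04 (SD, n = 5) and 9.93 ± 2.10 (n = 12) at 26 weeks and at 9.77 ± 1.86 (n = 6) and 10.4 ± 3.17 (n = 5) at 35 weeks. Atf6 stood at 29.9 ± 2.69 and 27.3 ± 3.13 at 26 weeks and at 30.6 ± 2.57 and 32.5 ± 2.84 at 35 weeks. Neither sensor was called in the disease comparison at either age.

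In the ATF4 arm, calls were made at 35 weeks. None of its 7 members passed the test at 26 weeks (limma), with a median of 0.12. At an unadjusted p under 0.05 (limma), 2 were higher and none lower (28.6%), beside 2984 of 13495 genes higher and 2888 lower (43.5%). After scaling to the total 2 were called higher, in a setting where 68.5% of all calls were higher. At 35 weeks Ddit3, Trib3 and Ppp1r15a were higher (42.9%, beside 15.9% of all genes) and the median was 0.40. That the arm differed between the ages was not shown: none of the 7 was called in the interaction of disease and age. Atf4 itself, which is controlled largely through its translation, was 60.4 ± 3.86 (SD, n = 5) in db/m against 64.2 ± 8.18 (n = 12) in db/db Unx kidneys of 26 weeks, and 65.9 ± 9.69 (n = 6) and 74.3 ± 14.5 (n = 5) at 35 weeks (adjusted p = 0.561 and 0.264).

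Ppp1r15a (GADD34), the phosphatase subunit that restores translation, had db/m values from 15.4 over 17.6 to 22.6 at 35 weeks and db/db Unx values of 26.5, 26.1, 21.0, 28.3 and 26.7. Library 03 lay within the controls and the other 4 above them, and Ppp1r15a was 1.42-fold higher (0.51 ± 0.14, adjusted p = 0.00343). At 26 weeks it differed by 0.19 ± 0.12 (adjusted p = 0.236). Ddit3 (CHOP), the pro-apoptotic factor of prolonged stress, ran from 9.37 over 11.1 to 14.0 in db/m at 35 weeks and was 13.3, 13.5, 18.7, 18.0 and 16.7 in db/db Unx. Libraries 01 and 02 fell below the highest control, and the difference was 0.46 ± 0.14 (adjusted p = 0.00925). At 26 weeks Ddit3 was 13.7 ± 2.28 (n = 5) and 16.8 ± 3.04 (n = 12), not called (adjusted p = 0.0881) but called without db/m library 05 (0.34, adjusted p = 0.0411).

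Trib3, a pseudokinase downstream of CHOP, had low values. Its values were 0.753 ± 0.484 (SD, n = 6) in db/m against 1.65 ± 0.609 (n = 5) in db/db Unx kidneys of 35 weeks, and its call (0.60 ± 0.23, adjusted p = 0.0441) was lost in 12 of the alternatives, 8 of which left out a single library of 35 weeks. Chac1, a glutathione-degrading enzyme, was lower still, with a mean under 1 in every group and values of 0 in 3 of the groups. Asns (asparagine synthetase) differed by 0.40 ± 0.20 at 35 weeks (adjusted p = 0.134) and Sesn2 (sestrin 2) by 0.35 ± 0.16 at 26 weeks (adjusted p = 0.101). Sesn2 was called at 26 weeks after scaling to the total (0.44, adjusted p = 0.0243) and without db/m library 05 (0.49, adjusted p = 0.0234).

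**Figure D3:**
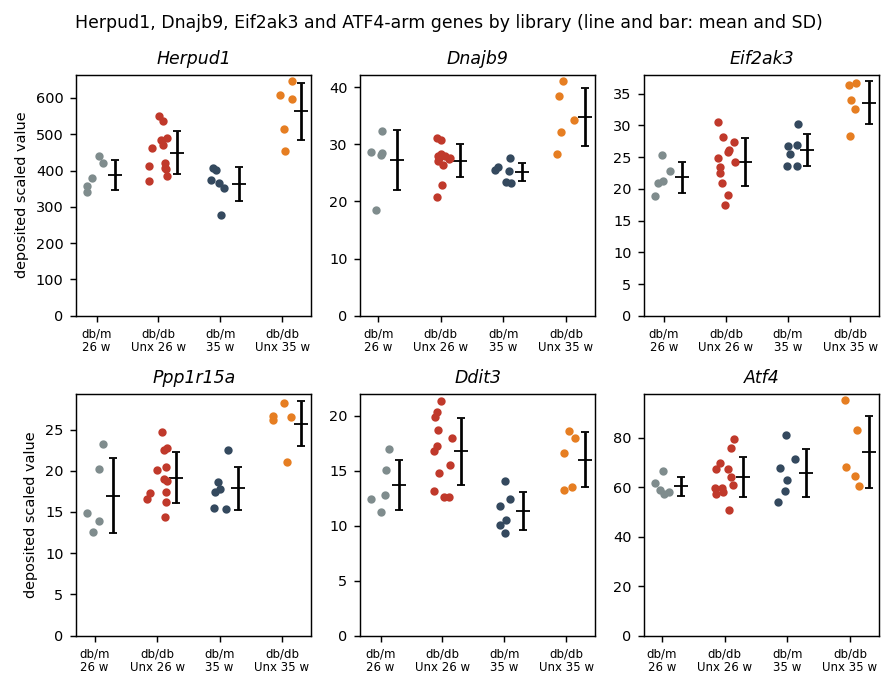
Deposited scaled values (y axis, from 0) of Herpud1, Dnajb9, Eif2ak3, Ppp1r15a, Ddit3 and Atf4 are plotted for every library in the 4 groups, with the mean and SD beside the points. At 35 weeks all 5 db/db Unx points lie above all db/m points in Herpud1 and Dnajb9 and 4 of 5 in Eif2ak3 and Ppp1r15a, while the Atf4 groups overlap.

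The cytosolic heat shock proteins went in both directions. Of the 7 members, the inducible Hsp70 genes Hspa1a and Hspa1b were higher at both ages, Hsp90aa1 and Hsph1 were lower at both, and Dnajb1, Hspa8 and Hspb1 were called at neither. The median was 0.06 at 26 weeks and 0.10 at 35 weeks. Higher and lower shares were 28.6% each at both ages. Among all genes, 17.2% were higher and 17.7% lower at 26 weeks, and 15.9% and 16.4% at 35 weeks. Hspa1a and Hspa1b sit side by side on chromosome 17 (Hspa1a at chr17:34969190-34972156 and Hspa1b at chr17:34956436-34959238, minus strand) and their longest reading frames are 99.4% identical, so reads could be assigned to either and their separate values are uncertain. Of the 250 bases before their starts, 247 were identical. The Hspa1b window (chr17:34959239-34959488, minus strand) is given because it holds the paired heat shock motif GAANNTTC, in capitals. The motif, searched on both strands, was also found in the windows of Hspa1a, Hspb1 and Asns and in 6.69% of all windows.
Hspa1b: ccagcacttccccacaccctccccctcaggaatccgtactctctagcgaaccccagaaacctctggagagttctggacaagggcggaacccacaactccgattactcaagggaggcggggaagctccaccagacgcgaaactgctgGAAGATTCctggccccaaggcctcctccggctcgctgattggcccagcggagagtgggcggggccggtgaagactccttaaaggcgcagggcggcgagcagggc

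Hspa1b had the highest ratio of the 38 members. Its 26-week db/m values were 14.2, 13.2, 13.8, 15.6 and 14.7, and db/db Unx ran from 27.0 over 43.1 to 66.3. The controls were tightly grouped and every diseased kidney lay above them, with Hspa1b 2.92-fold higher (1.55 ± 0.30, adjusted p = 0.000198); 5.11% of all genes were higher without overlap. The 35-week db/m values ran from 9.02 over 20.6 to 92.1, and the db/db values were 40.0, 64.0, 42.2, 64.6 and 58.2. The control library, replicate 04, lay above all diseased kidneys. The difference was 1.10 ± 0.34 (adjusted p = 0.0145), 1.48 without that library (adjusted p = 2.07e-05), and not called with the spread taken from the 2 groups of 35 weeks alone (adjusted p = 0.136). Hspa1a was 11.7 ± 1.49 (SD, n = 5) and 23.0 ± 6.77 (n = 12) at 26 weeks, 1.84-fold higher (adjusted p = 0.00118). At 35 weeks it was 17.1 ± 9.47 (n = 6) and 27.7 ± 4.50 (n = 5), with the same control library highest at 34.6 (adjusted p = 0.0106, and 0.0587 with the spread of 35 weeks alone). Both calls of 35 weeks were lost without db/db Unx replicates 03, 05 and 06.

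Hsp90aa1, the inducible cytosolic Hsp90, had 26-week db/m values of 496, 460.4, 465, 906 and 397 and ran from 304 over 353 to 425 in db/db Unx. Replicate 04 was again the highest control, and 10 of 12 diseased kidneys lay below all controls. The difference was -0.53 ± 0.12 (adjusted p = 0.00115), and -0.33 without that library (adjusted p = 0.00136). At 35 weeks db/m ran from 413 over 448 to 630.2 and the db/db values were 333, 346, 303, 308 and 336, all below the controls (-0.54 ± 0.14, adjusted p = 0.0036). Without db/db Unx replicates 03, 05 and 06 the 35-week calls of Hsp90aa1 (-0.48, adjusted p = 0.11) and Hsph1 (-0.67, adjusted p = 0.0881) were lost. Hsph1 (Hsp105), a cochaperone of Hsp70, was 25.5% and 30.5% lower, close to the threshold at both ages (adjusted p = 0.0465 and 0.0327). Its 26-week call was lost in 22 of 40 alternatives, among them leaving out db/m library 04 (-0.28, adjusted p = 0.213), and its 35-week call in 11.

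The constitutive Hsc70, Hspa8, was the most abundant member per kilobase of exon in every group. Its 26-week db/m values were 2415, 2094, 2100.3, 1262 and 2264, against 1224 over 1741 to 2073 in db/db Unx. Here library 04 was the low one, below all but 1 diseased kidney; the difference was -0.20 ± 0.13 (adjusted p = 0.232) with it and -0.36 without it (adjusted p = 0.0114). Hspb1 (Hsp25 in the mouse), a small heat shock protein that binds actin, was 19.0 ± 11.0 (SD, n = 5) and 26.0 ± 6.86 (n = 12) at 26 weeks and 28.6 ± 16.7 (n = 6) and 42.0 ± 14.0 (n = 5) at 35 weeks. Neither difference was called (adjusted p = 0.136 and 0.122). Without db/m library 04 the 26-week difference was 0.81 (adjusted p = 0.0197), and without db/m library 03 that of 35 weeks was 0.87 (adjusted p = 0.0206). Dnajb1 (Hsp40) differed by 0.06 ± 0.10 and 0.10 ± 0.11.

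**Figure D4:**
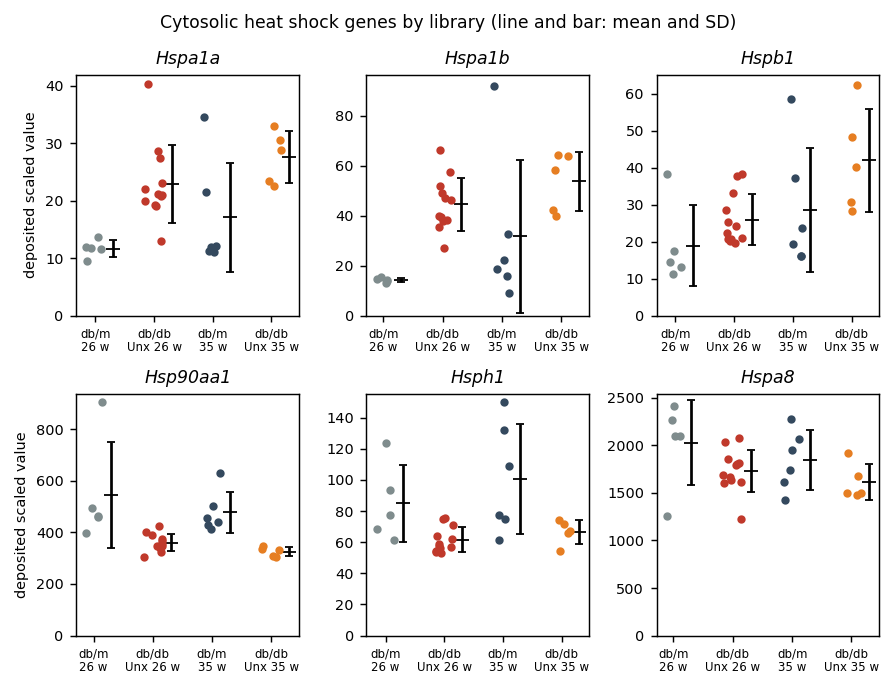
Deposited scaled values (y axis, from 0) of 6 cytosolic heat shock genes are plotted for every library in the 4 groups, with the mean and SD beside the points. Hspa1b shows no overlap at 26 weeks and 1 high db/m point at 35 weeks (92.1); in Hsp90aa1 and Hspa8 the same 26-week db/m library stands apart, high in the first (906) and low in the second (1262).

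Compared by age within a genotype, few members changed. In db/db Unx, 5 of 38 were higher at 35 than at 26 weeks and none was lower (13.2%, beside 5.16% of all genes higher and 6.14% lower): Dnajb9 (1.27-fold), Herpud1 (1.25-fold), Atf6 (1.19-fold), Eif2ak3 (1.38-fold) and Ppp1r15a (1.33-fold). The comparison shares its 35-week db/db libraries with the disease comparison of that age, and it rests on them: the count was 1 without replicate 05, 2 without replicate 06, 3 without replicate 03, and 0 without all 3, with 8 genes called of all tested. In db/m no member was called (limma), beside 7.4% of genes called, 2.73% higher and 4.68% lower. At an unadjusted p under 0.05 (limma), 3 members were higher and 1 lower there (10.5%), beside 21.2% of all genes in either direction. No member was without overlap in either age comparison, while in db/db Unx 0.482% of genes were so on the higher and 0.86% on the lower side, and in db/m 1.5% and 3.49%. None was called in the interaction of disease and age either, beside 0.548% of all genes, 0.393% with a higher disease difference at 35 weeks. At an unadjusted p under 0.05 (limma), 3 members (Dnajb9, Herpud1 and Trib3) had a higher disease difference at 35 weeks and none a lower one. That is 7.89% of the members, beside 887 of 13495 genes in that direction and 12.6% of genes in either. For Dnajb9 the interaction was 0.43 ± 0.15 (adjusted p = 0.165), for Herpud1 0.42 ± 0.14 (adjusted p = 0.171) and for Trib3 0.70 ± 0.31 (adjusted p = 0.329). After scaling to the total, 60.6% of the age calls in db/db Unx and 63.7% of those in db/m were higher, beside 45.7% and 36.8% as deposited.

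Other genes of the same pathways were followed in lists of their own, also chosen with earlier results of these data known. Their counts stand beside all genes tested, of which 17.7% were lower and 17.2% higher at 26 weeks. At 35 weeks these shares of all genes were 16.4% and 15.9%. Of 16 other ER folding and translocation genes, 10 were lower at 26 weeks and 9 at 35 weeks, and none was higher (medians -0.32 and -0.18). P4hb, the main disulfide isomerase, was 959 ± 79.6 (SD, n = 5) in db/m against 632 ± 29.6 (n = 12) in db/db Unx kidneys of 26 weeks (-0.60 ± 0.05), and differed by -0.56 ± 0.05 at 35 weeks. Erp44, a thiol retention factor, differed by -0.71 ± 0.07 and -0.56 ± 0.08, and Sec61b, a subunit of the translocon, by -0.55 ± 0.07 and -0.25 ± 0.08. Of 16 other degradation genes, 10 were lower at 26 weeks and 7 at 35 weeks, again with none higher (medians -0.24 and -0.16). They included the extraction ATPase Vcp (-0.31 ± 0.04 and -0.36 ± 0.04), the ligase Rnf5 (-0.41 ± 0.05 and -0.36 ± 0.06) and Selenos (-0.41 ± 0.06 and -0.33 ± 0.06), a partner of Vcp at the ER.

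Of 14 other sensors and regulators, 4 were higher and 4 lower at each age (28.6% each way, against the shares of all genes given above). Nfe2l1, an ER-anchored factor that induces proteasome genes, was higher (0.50 ± 0.07 and 0.34 ± 0.08), while Atf6b, the relative of Atf6 (-0.52 ± 0.08 and -0.57 ± 0.09), and Tmbim6, an inhibitor of IRE1 (-0.30 ± 0.04 and -0.29 ± 0.05), were lower. Of 24 other ATF4 targets, 7 were higher and 3 lower at 26 weeks (median 0.15), and 12 were higher and 3 lower at 35 weeks (median 0.53). Slc3a2, the heavy chain of amino acid exchangers, was 222 ± 11.3 (n = 5) and 409.7 ± 40.7 (n = 12) at 26 weeks (0.87 ± 0.06) and differed by 0.55 ± 0.07 at 35 weeks, without overlap at either age. Gdf15, a stress hormone that injured tubules also secrete, was 7.23 ± 2.51 and 17.5 ± 4.07 at 26 weeks and 9.25 ± 1.91 (n = 6) and 33.1 ± 8.27 (n = 5) at 35 weeks. Shmt2, the mitochondrial serine hydroxymethyltransferase, was lower (-0.18 ± 0.05 and -0.43 ± 0.06). Slc7a11 of this list was not analysed here.

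Of 21 other heat shock and chaperonin genes, 10 were lower and 4 higher at 26 weeks (median -0.25), and 11 were lower and 2 higher at 35 weeks (median -0.19). Dnaja1, a cytosolic Hsp40, differed by -0.59 ± 0.07 and -0.68 ± 0.08 without overlap, and so did Hspd1 (-0.55 ± 0.05 and -0.73 ± 0.06), which is the Hsp60 chaperonin of mitochondria and so not cytosolic. Hspb8, a small heat shock protein of selective autophagy, was higher without overlap, at 1.21 ± 0.165 (SD, n = 5) and 4.89 ± 1.27 (n = 12) at 26 weeks and 1.49 ± 0.409 (n = 6) and 7.53 ± 1.77 (n = 5) at 35 weeks.

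Within the largest group, the 12 libraries of 26-week db/db Unx kidneys, 4 of 13 chaperones and 1 of 6 degradation genes varied with Hspa5 by Pearson r. A total of 32 relations were computed. They were those of Hspa5 with the 13 other chaperones and the 6 degradation genes, and of Atf4 with its 6 targets. The others were those of Hspa1a with the 6 other heat shock genes, and of Fos with Hspa1a. By r, 7 passed a two-sided permutation test (100000 resamples) after Benjamini-Hochberg adjustment. Hspa5 varied with Manf (Pearson r = 0.93, Spearman rho = 0.93, permutation p = 3e-05 for both, adjusted p = 0.00096), and r was 0.87 without the 2 libraries farthest from the median of Hspa5. The same held for Creld2 (r = 0.89, rho = 0.84, permutation p = 0.00011 and 0.00107, adjusted p = 0.00176 and 0.00856; 0.80 without the 2 libraries). Hsp90b1 (r = 0.80, rho = 0.85, permutation p = 0.00257 and 0.001, adjusted p = 0.0182 and 0.00856; 0.75) and Edem1 (r = 0.77, rho = 0.87, permutation p = 0.00252 and 0.00049, adjusted p = 0.0182 and 0.00784; 0.76) followed. Dnajb11 passed by r alone (r = 0.72, permutation adjusted p = 0.0374; rho = 0.64, adjusted p = 0.0906; 0.52). Derl2, not counted, passed by rho alone (rho = 0.76, permutation adjusted p = 0.0377). Its r was 0.66 (permutation adjusted p = 0.0675), and 0.44 without the 2 libraries. For Herpud1 no relation to Hspa5 was found (r = 0.01, rho = 0.11, permutation p = 0.969 and 0.735). The correlation of Hspa5 with the libraries' estimated depth was 0.09. All these libraries come from 1 group, and cell makeup that varies among them was not tested as a source.

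Hspa1a varied with Hspa1b (r = 0.81, rho = 0.66, permutation p = 0.00285 and 0.022, adjusted p = 0.0182 and 0.088), but r was 0.38 without the 2 libraries farthest from the median, so that the relation rests on those. Reads could be assigned to either of these 2 genes, so their values are not independent measures. The part of read assignment in this relation was not tested. Fos, an immediate early gene, varied with Hspa1a (r = 0.77, rho = 0.69, permutation p = 0.00492 and 0.0173, adjusted p = 0.0262 and 0.0857; 0.77 without the 2 libraries farthest from the median of Fos). With single libraries left out, r ran from 0.51, without replicate 11, to 0.87, without replicate 01. Of 9 immediate early genes, 2 were higher at 26 weeks (Jun and Nr4a1) and 7 at 35 weeks. Their part in the Hspa1a and Hspa1b differences was not tested. Sums of the 9 spanned 137 to 235 among 26-week controls and 136 to 216 among diseased kidneys of that age. At 35 weeks they spanned 141 to 221 and 177 to 348, so the groups overlapped at both ages. Dusp1, which was not called, had the highest mean of the 9 at 26 weeks: 82.0 ± 33.3 (SD) for controls, 63.3 ± 14.8 for diseased kidneys. Jun rose from 25.5 ± 3.62 to 44.1 ± 5.58 and Nr4a1 from 2.48 ± 1.88 to 5.93 ± 1.70, so the 26-week overlap of the sums does not hold for each gene. None of the 6 relations of Atf4 with its targets passed (r from -0.55 to 0.53). The count of relations that passed was 2 without db/db Unx replicate 08 and 4 without replicate 11.

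**Figure D5:**
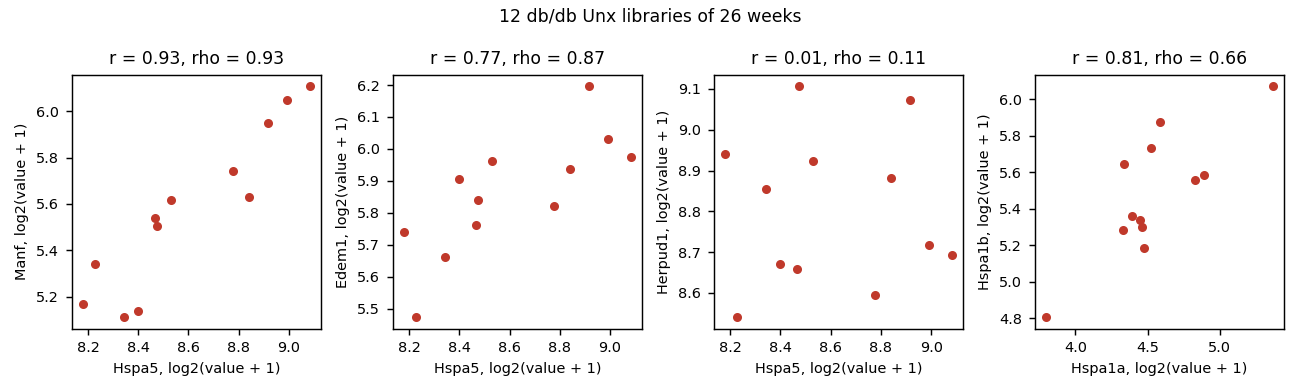
Each point is 1 of the 12 libraries of 26-week db/db Unx kidneys, with log2(value + 1) of the named genes on both axes and r and rho above each panel. Manf and Edem1 rise with Hspa5 and Herpud1 does not; in the last panel Hspa1b rises with Hspa1a (r = 0.81).

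Over all 28 libraries, after the mean of each group was removed, the 5 genes most like Hspa5 among all genes were Creld2 (r = 0.88), Manf (0.87), Hsp90b1 (0.81), Dnajb11 (0.80) and Tuba1c (0.78). Of these, 4 are members, and Tuba1c, an alpha-tubulin, was not called in the disease comparison at either age. The 5 genes most like Hspa1a were Hspa1b (r = 0.85), Bcam (0.80), Akr1b3 (0.75), Slco4a1 (0.75) and Muc1 (0.74). Without the 35-week db/m library 04, in which Hspa1a and Hspa1b were highest of that group, an alternative chosen after seeing the data, these values were 0.75 for Hspa1b, 0.67 for Bcam, 0.56 for Akr1b3, 0.57 for Slco4a1 and 0.53 for Muc1. These likenesses are given as a description, and reads of Hspa1a and Hspa1b could be assigned to either gene.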

How the data were processed

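Bulk RNA-seq of kidney was available for 28 libraries. The authors deposited 1 signal value per gene and library, scaled between libraries, for 14845 Ensembl genes; they used DRAGEN and GRCm38 (mm10), per the submitters' processing notes. The software version, the annotation and how values were scaled were not given in the sources used here. Per the labels' protocols, libraries were made with a Nextera XT kit. Of the low values in each library, 89.0% to 91.4% (under 20 steps) were whole to within 0.1 once divided by a step found for each library, which gave the estimated depths; because the other low values were not whole, no count model was run.

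Symbols came from GENCODE M21 (14834 genes matched). The filter kept 13495 genes, those that reached 1 in 5 or more libraries. The values were used as log2(value + 1) in limma 3.58.1 (R 4.3.3), with 1 mean per group, a spread shared by the 4 groups, mean-variance trend and robust moderation, and Benjamini-Hochberg adjustment over all genes. Fold changes are on this scale and understate those of low genes. The fit was tested on simulated data. Groups came from the sample titles.

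The 38 members and all lists were chosen with earlier results of these data known. All members were named; of each other list, 3 called genes were named by the lowest adjusted p over both disease comparisons, and the 5 genes most like Hspa5 and Hspa1a. Older symbols were matched through RefSeq synonyms. Promoter windows are from RefSeq (GRCm38.p6); 6 members had none in that table. Alternatives changed the pseudocount, filter, scaling, moderation, libraries in the fit, replicate block, and left out libraries.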

Additional observations from a re-analysis of the deposited data

Results flagged for a closer look

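In 114 checks for a library far from the rest of its group, 8 values stood apart by Dixon's criterion; chance gives about 1 in 20. Of these, 5 belonged to replicate 04 of the 26-week db/m group. In it Hsp90aa1 was 906 (397 to 496 in the other 4), Derl2 was 121 (85.4 to 91.4) and Sel1l was 141 (109.6 to 115), all high, while Dnajb9 was 18.4 (28.2 to 32.4) and Hspa8 was 1262 (2094 to 2415), both low. Dnajb11 was high in replicate 05 of the 35-week db/m group, at 171 beside 129.7 to 142. In replicate 03 of the 35-week db/db Unx group, Creld2 was high at 64.7 (29.5 to 33.3) and Ppp1r15a low at 21.0 (26.1 to 28.3).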

How the results depend on the processing

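Of the 50 member differences called, 30 kept their call under all 40 alternatives (20 of 22 at 26 weeks, 10 of 23 at 35 weeks, 0 of 5 by age), and no called difference changed its direction. Without db/db Unx replicates 03, 05 and 06, the 35-week disease comparison had 2407 genes, 2 members higher and 8 lower, the db/db Unx age comparison 8 genes and 0 members, and the interaction 0 genes. Without db/m replicate 04 of 26 weeks and 05 of 35 weeks, added after seeing the data, 479 genes were called by age in db/m and 19 in the interaction. Scaling to the total gave 6 members higher at 26 weeks and 1 by age in db/m, and moderation without trend gave 41 genes in the interaction. With the replicate number as a block, although the numbers do not pair libraries (mean correlation of same-numbered libraries -0.0106, none of 30 pairs above 0.1; 3 of 22 libraries correlated best with their own number), 483 genes and 1 member were called by age in db/db Unx and 29 genes in the interaction.

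With each library left out in turn, the genes called ranged from 4178 to 4780 at 26 weeks, from 3751 to 4397 at 35 weeks, from 633 to 1748 by age in db/db Unx, from 578 to 1140 by age in db/m and from 7 to 249 in the interaction. Members higher ranged from 2 to 4 at 26 weeks (4 without db/m replicate 05) and from 1 to 6 by age in db/db Unx, and relations that passed from 2 to 10. Trib3 and Chac1 had values near 1, as had Fos in 26-week db/db Unx, and the 35-week db/db Unx group has 5 libraries.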
